A study of Mus musculus with 27 samples.

Results

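Among 27 mouse prostate tumours, 4 had little transcript of Syp, the gene of synaptophysin, a synaptic vesicle protein used to recognise neuroendocrine cells. These 4 tumours were chosen by their measured values: the log2 value of Syp was under 6.5 in P966, P471, P425 and P1276 and above it in the 23 others. Each tumour came from a different male, F2 offspring of a cross of C57BL/6-Tg(TRAMP)8247Ng/J with the wild-derived strain PWK/PhJ, and all 27 carried the transgene. TRAMP mice express the SV40 early region, which holds the tumour antigens, under the androgen-responsive probasin promoter, so the model starts in probasin-expressing prostate epithelium. Animals were examined at the age of 30 weeks or earlier when they reached a humane endpoint; the labels give no age per tumour and put all 27 in 1 group. Total RNA of whole frozen tumour tissue was measured on 1 array per tumour, so each value is a single measurement with no technical replicate, and the error given with a difference comes from the spread over tumours.

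Neuroendocrine cells store peptide hormones in dense-core granules, release them by the vesicle machinery that neurons use, and express many genes of neurons. In prostate cancer this identity can arise beside or in place of the glandular, luminal identity, whose cells are joined by E-cadherin, desmosomes and tight junctions, contain keratins 8 and 18 and secrete prostate proteins in response to androgens. TRAMP tumours on several backgrounds are known for frequent neuroendocrine differentiation.

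Because Syp chose the tumours, and genes of the same cells vary together, every difference below is a description and carries no test. Values are log2 expression values, and values of the 4 are given in the order P966, P471, P425, P1276. The median of all 41345 rows of the table was 5.75, a level near which many rows carry little signal. Array medians of the 4 lay between 5.73 and 5.77, inside the span of 5.67 to 5.82 over all 27. In whole tissue, fewer cells of a type and less RNA per cell cannot be told apart.

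Syp read 5.73, 5.16, 5.70 and 6.18 in the 4, and between 7.41 and 8.74 with a median of 8.09 in the 23. Just inside the threshold lay P1276 at 6.18 and just outside it P1225 at 7.41, so no tumour was close to it. The array has 2 rows for Syp, and the row used is that with the higher mean. The other stayed between 4.0 and 4.55 in all 27 tumours and did not separate them.

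A gene was called when all 4 tumours lay beyond all 23 and the means differed by at least 1 log2 unit. Of the 22179 genes besides Syp, 748 were called, 246 of them (1.11% of the genes) higher in the 4 and the rest (2.26%) lower. When the groups were allowed to overlap, 1305 genes (5.88%) had a mean at least 1 log2 unit higher and 1187 (5.35%) at least 1 log2 unit lower. The median difference over all genes was 0.016; the deposited arrays have nearly equal medians, so a shift of the whole table could not be seen. More lower than higher genes were free of overlap, although the numbers with a mean 1 log2 unit away were similar in the 2 directions.

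Many neuroendocrine and neural genes were lower in the 4. In 5 lists of such genes, 36 of 86 measured members were called lower and 0 were called higher, with a median difference of -1.97. Over all genes, 2.26% were called lower and 1.11% higher. Of the 10 granin and prohormone processing genes, 6 were called lower (Chga, Chgb, Scg3, Scg5, Cpe and Pcsk1n), and the median difference of the list was -2.65. Scg3, secretogranin III, which carries hormone cargo into granules, read 5.58, 4.83, 5.13 and 5.93 against 8.85 to 10.10 (median 9.62) in the 23. The lowest of the 23 was thus 2.92 above the highest of the 4, and the means differed by -4.16 ± 0.26 (SE of the difference, n = 4 and 23), 17.9-fold. Chga, chromogranin A, the usual serum marker of neuroendocrine tumours, stood at 7.19, 5.91, 7.31 and 7.57 against 8.70 to 11.55 (median 10.19). Chgb, chromogranin B, differed by -3.59 ± 0.30, and Cpe, the carboxypeptidase that trims prohormones, by -3.13 ± 0.19. Among the 4 members that were not called, Pcsk1, a prohormone convertase, read 5.21, 5.09, 6.15 and 6.55, but the 23 ranged from 4.99 to 12.09, so its groups overlapped.

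Genes of vesicle release were lower in the same way. Of 19 measured members of that list besides Syp, 10 were called lower and 0 higher (median difference -2.07). Syt1, the calcium sensor of fast release, read 8.03, 6.18, 7.28 and 8.29 against 10.07 to 11.59 (median 11.07). Snap25, a subunit of the fusion complex, read 7.47, 5.35, 8.29 and 7.51 against 9.39 to 11.27. P471 was the lowest of the 4 in both. Unc13a, which primes vesicles, differed by -2.42 ± 0.15 and Cplx1, complexin 1, by -2.85 ± 0.19. Snap91, a clathrin adaptor that takes part in retrieving vesicle membrane, differed by -3.80 ± 0.30.

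Neural adhesion and cytoskeleton genes followed, with 11 of 22 called lower and 0 higher (median difference -2.60). Ncam1, the adhesion molecule CD56 that is a second clinical marker of these tumours, read 7.46, 6.30, 7.62 and 8.0 against 9.39 to 11.14 (median 10.67). Rtn1, a reticulon of neuroendocrine cells, read 7.03, 6.48, 6.87 and 7.29 against 8.97 to 9.93. Neither gene's groups overlapped, and both stayed above the median of all rows in the 4. Ina, the neurofilament protein alpha-internexin, differed by -3.75 ± 0.29, Crmp1, which acts on growth cone microtubules, by -3.54 ± 0.51, and the neuronal RNA-binding gene Elavl4 by -3.14 ± 0.20. Of the 18 channel and receptor genes 7 were called lower and 0 higher (median difference -1.99). Gria2, an AMPA receptor subunit, read 5.85, 4.78, 5.16 and 5.98 against 8.43 to 10.64, a 19.2-fold difference of the means. Scn3a, a voltage-gated sodium channel, differed by -3.46 ± 0.19 and Cacna2d1, an auxiliary calcium channel subunit, by -3.52 ± 0.20.

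The 15 called genes with the largest difference downward, besides those above, included Gdap1, a mitochondrial protein of neurons (-4.27 ± 0.42), the calcium-binding gene Necab1 (-3.79 ± 0.23), the neural transcription factor gene Sox1 (-3.75 ± 0.46), Crtac1 (-3.56 ± 0.38), Soga3 (-3.54 ± 0.33) and Bves, an adhesion protein (-3.52 ± 0.57). Sox1 read 7.16, 5.22, 6.55 and 7.09 in the 4 and no lower than 8.22 in the 23. Genes close to the threshold of 1 log2 unit were Eif4e3 and Ccdc92b just inside and Mapk8ip3 and Gnptg just outside.

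**Figure D1:**
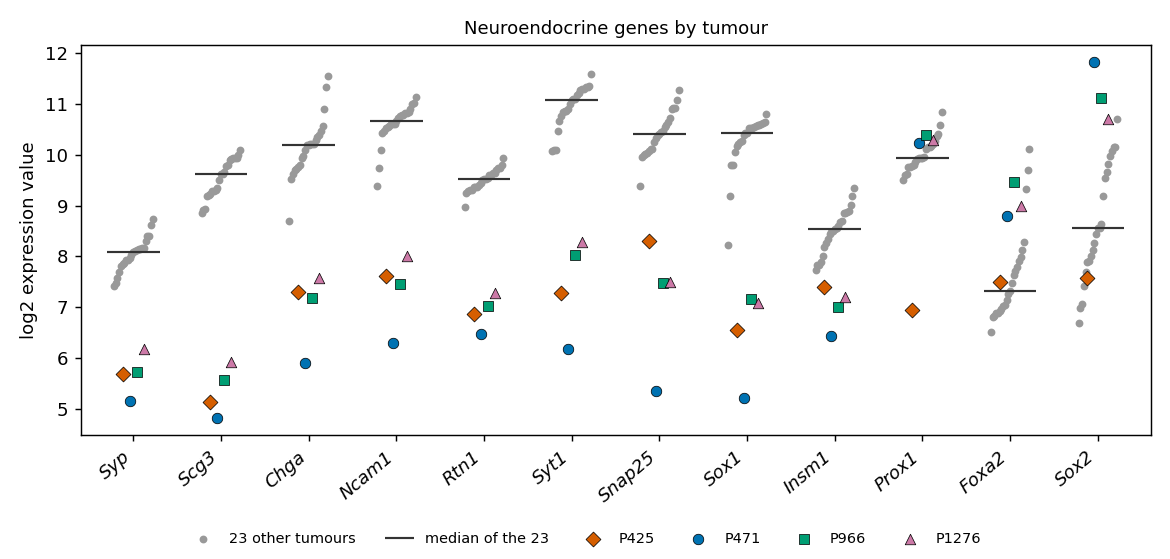
Log2 expression values of 12 neuroendocrine genes (vertical axis) in each tumour. Grey points are the 23 other tumours sorted by value, the bar their median, and coloured symbols the 4 tumours of low Syp. From Syp to Insm1 the symbols lie below all grey points, whereas Prox1 is low in P425 alone and Foxa2 and Sox2 are high in the other 3.

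Transcription factors of the neuroendocrine programme did not all differ in that direction. Only 2 of 17 were called lower, Insm1 and Myt1, none was called higher, and the median difference was -0.59. Of all genes, 2.26% were called lower. Insm1, a zinc finger factor required for endocrine differentiation, read 7.01, 6.43, 7.41 and 7.20 against 7.73 to 9.35 (median 8.54). Myt1 differed by -2.48 ± 0.25. Its relatives St18 and Myt1l had similar mean differences (-2.87 and -2.46), but the groups overlapped. Foxa2, a forkhead factor described in neuroendocrine prostate tumours, read 9.46, 8.79, 7.49 and 8.99, while the 23 had a median of 7.32 and reached 10.11 in P803. Sox2, a stem cell and neural progenitor factor, read 11.11, 11.82, 7.57 and 10.70 against 6.68 to 10.70 (median 8.56). Prox1, a homeobox factor, read 10.38, 10.22, 6.95 and 10.30, so 3 of the 4 lay within the range of the 23 (9.50 to 10.84) and P425 lay 2.55 below their lowest value. In P966, P471 and P1276 many granin, vesicle and neural genes were thus lower, but Sox2, Foxa2 and Prox1 were not. Lower did not mean absent: Chga, Cpe, Syt1 and Ncam1 stayed above 5.75, the median of all rows, in all 4. The tumours are therefore not described as lacking neuroendocrine identity and are called by their low Syp here.

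Epithelial genes were higher, but with more overlap than the neural genes showed. In 5 lists of junction, keratin, basal and regulator genes, 12 of 80 measured members were called higher and 0 lower, with a median difference of 1.69. Over all genes, 1.11% were called higher and 2.26% lower. Cldn4, a tight junction claudin, read 11.001, 9.92, 10.48 and 11.40 against 4.97 to 9.65 (median 5.80), a difference of 4.58 ± 0.38 or 23.9-fold. F11r, the junctional adhesion molecule A, lay within 10.38 to 10.43 in all 4 and reached 10.04 in the 23 (median 6.47). St14, the membrane protease matriptase, read 11.28, 10.58, 10.64 and 10.96 against at most 10.57. Krt18, a keratin of luminal cells, read 10.90, 10.41, 10.69 and 10.95 against 5.92 to 10.36 (median 7.28). The gaps between the groups were narrow in these genes, from 0.01 for St14 to 0.34 for F11r. A gap of 1.15 separated them for Itgb4, an integrin of hemidesmosomes, at 9.73, 9.32, 9.14 and 9.93 against at most 7.99.

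The other called members were the catenin genes Ctnna1 and Ctnnd1, the plakophilin gene Pkp3, Lamb3, Ly6d, the splicing regulator gene Esrp2 and the transcription factor gene Klf5. Lamb3, a chain of the basement membrane protein laminin, read 8.89, 8.92, 6.80 and 9.38 against at most 6.28. Esrp2, which sets epithelial splicing, read 9.28, 9.42, 9.63 and 9.60 against at most 9.11. Tfap2a was an exception among the regulators, at 6.81, 7.27, 8.48 and 6.61 against 8.34 to 10.27. The basal markers Trp63 (5.49, 5.20, 5.46 and 5.42) and Krt14 (5.41, 5.42, 5.95 and 6.5) stayed inside or within 0.1 of the ranges of the 23, so the called basal members did not include these defining ones.

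Many epithelial genes had large mean differences and were still not called. Cdh1, E-cadherin, read 10.94, 10.54, 11.51 and 11.31 in the 4, and the 23 had a median of 6.60. However, P219, P1469, P569 and P803 read 10.65, 10.58, 10.51 and 10.46, so Cdh1 overlapped in P219 and P1469. Krt8, the partner of keratin 18, read 11.72, 11.11, 11.46 and 11.68, and 3 of the 23, P803, P569 and P1469, read between 11.64 and 11.71. Dsp, desmoplakin, and Rab25, an epithelial trafficking GTPase, had mean differences of 4.01 ± 0.41 and 4.05 ± 0.39 and overlapped as well. Among the 1059 genes with a mean at least 1 log2 unit higher and overlapping groups, the highest of the 23 was P219 in 428 (40.4%), P1469 in 110, P569 in 110 and P803 in 108. Among the 685 genes with a mean at least 1 log2 unit lower and overlapping groups, the lowest of the 23 was P803 in 169 (24.7%), P1469 in 117, P569 in 93 and P219 in 66. Scg3 was 8.94 in P219, 8.91 in P1469 and 8.85 in P569, the lowest 3 values of the 23 but still 2.92 or more above the highest of the 4. P219 had the lowest score of the 23 for neural channels and receptors (-0.85) and P803 for neural adhesion and cytoskeleton (-0.82), where the 4 read -2.41 to -1.66 and -2.58 to -1.69. High E-cadherin and keratin 8 thus occurred in tumours on both sides of the Syp threshold. Without P219, 400 genes were called higher in place of 246, and 551 were called lower.

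**Figure D2:**
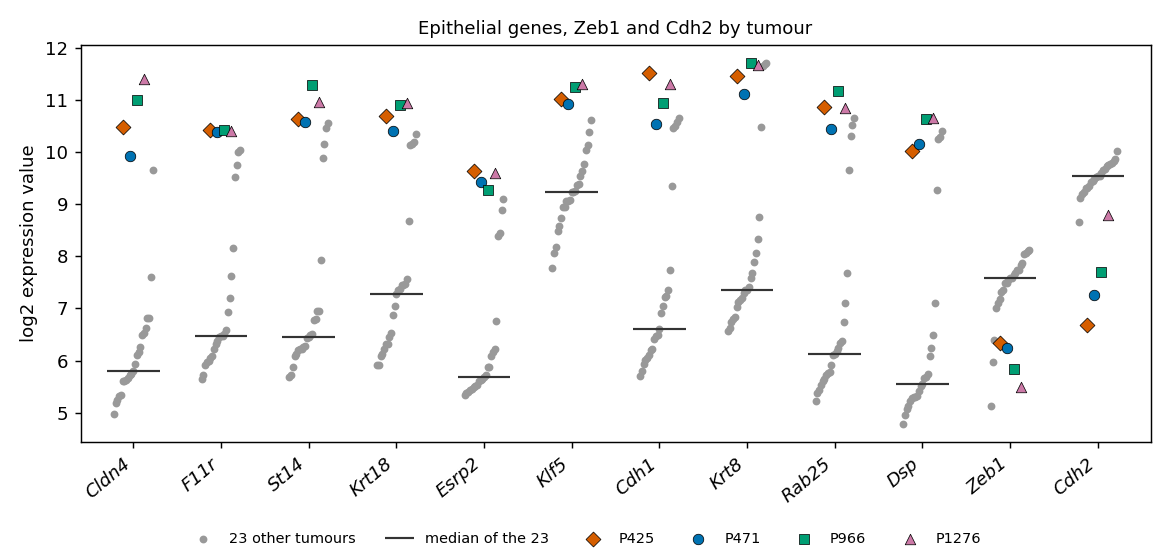
Log2 expression values (vertical axis) of 10 epithelial genes, Zeb1 and Cdh2 in each tumour, drawn with grey points for the 23 other tumours, a bar for their median and coloured symbols for the 4. The 4 sit at the top of the epithelial genes, and for Cdh1, Krt8, Rab25 and Dsp a few grey points reach them.

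Zeb1 is a repressor of epithelial genes that binds E-box sequences, and the miR-200 family of microRNAs targets Zeb1 through its seed. Zeb1 read 5.83, 6.23, 6.33 and 5.50 in the 4. The 23 had a median of 7.58, but P1469 (5.12) and P569 (5.98), both among the tumours of high Cdh1, lay as low, so the groups overlapped (difference -1.42 ± 0.24). Cdh2, N-cadherin, read 7.71, 7.27, 6.69 and 8.80 against 8.65 to 10.03. Of the 10 genes of mesenchymal transition, 0 were called in either direction (median difference 0.33). With 1.11% of all genes called higher and 2.26% lower, so few genes would hold few if any calls.

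The miR-200 microRNAs fall into 2 groups by seed, and their mature 3p forms are shown because the array reports their precursor genes. Sequences are from RefSeq (GRCm38.p6), 5′ to 3′, with the seed (bases 2 to 8) in capitals; Mir429, the remaining family member, is not among the rows named here.
miR-200b-3p: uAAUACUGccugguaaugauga
miR-200c-3p: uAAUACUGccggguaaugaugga
miR-200a-3p: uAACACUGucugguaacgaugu
miR-141-3p: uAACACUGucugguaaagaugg
The genes of miR-200b and miR-200a lie together on chromosome 4, and those of miR-200c and miR-141 on chromosome 6. The rows measure the hairpin genes and not the mature forms. Mir200b read 7.59, 5.79, 10.47 and 7.0 against 5.27 to 7.31 (median 5.94), and Mir200a read 5.73, 5.30, 7.89 and 6.41 against 4.95 to 6.10. On chromosome 6, Mir200c read 5.07, 3.31, 6.51 and 6.12 against 2.93 to 4.71, and Mir141 read 3.35, 2.92, 4.59 and 4.57 against 2.82 to 4.0. All 4 precursors were above all 23 in P425 and in none of them was P471 above all 23. P1276 was above all 23 for Mir200a, Mir200c and Mir141, and P966 for Mir200b and Mir200c. Every Mir141 value, and all Mir200c values but those of P425 and P1276, lay below 5.75, the median of all rows. Over all 478 microRNA genes 0 were called higher and 1, Mir384, lower. Among all genes the called shares were 1.11% higher and 2.26% lower. Mir384 read 2.43 to 2.63 in the 4 and 2.89 to 5.21 in the 23. All of these values lay below 5.75, so its call rests on a level at which many rows carry little signal.

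The promoters of the called genes Cldn4 and Krt18 hold the E-box CAGGTG, read as CACCTG when it lies on the other strand, which is given in capitals. Each window below runs from 250 bases before the transcription start to the first 30 bases of the transcript, in the direction of the gene, with coordinates of GRCm38.p6.
Cldn4, chr5:134946905-134947184, minus strand: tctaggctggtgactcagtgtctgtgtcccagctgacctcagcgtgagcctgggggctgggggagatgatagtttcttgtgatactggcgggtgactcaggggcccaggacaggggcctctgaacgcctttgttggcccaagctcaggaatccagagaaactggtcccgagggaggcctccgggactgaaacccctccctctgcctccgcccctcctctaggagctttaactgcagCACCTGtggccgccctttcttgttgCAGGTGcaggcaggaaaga
Krt18, chr15:102027966-102028245, plus strand: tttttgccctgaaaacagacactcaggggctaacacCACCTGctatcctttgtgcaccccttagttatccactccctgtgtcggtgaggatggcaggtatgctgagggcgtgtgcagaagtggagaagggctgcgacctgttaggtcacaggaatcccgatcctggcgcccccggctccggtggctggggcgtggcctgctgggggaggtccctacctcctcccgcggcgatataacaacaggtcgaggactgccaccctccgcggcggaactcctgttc
The motif begins 14 bases before the start site and again at base 12 of the transcript for Cldn4, and 214 bases before the start site for Krt18. In RefSeq windows of 300 bases, the motif was present on either strand in 26.8% of 239 windows of called higher genes, 23.2% of 544 windows of called lower genes and 20.2% of all 32851 windows. The motif was thus common in both directions of call, and a match is a description of these letters, not a binding site.

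The genes with the largest difference upward came from several functions. Tgm3, the transglutaminase of cornifying epithelium, led with 12.37, 12.01, 8.78 and 11.81 against 5.52 to 8.56 (median 5.83), a difference of 5.11 ± 0.84 or 34.6-fold. Foxq1, a forkhead factor, read 9.99, 10.33, 8.91 and 10.43 against at most 8.01. Bmp4, a secreted morphogen, read 10.999, 10.70, 7.40 and 10.65 against at most 7.27, so P425 cleared the 23 by only 0.13. Sntb1 (4.02 ± 0.26), S100a6 (3.78 ± 0.75), Sbspon (3.72 ± 0.39), the alkaline phosphatase gene Akp3 (3.60 ± 0.89), the antibacterial peptidoglycan recognition gene Pglyrp1 (3.57 ± 0.44) and Plat, tissue plasminogen activator (3.43 ± 0.71), were also called. Fgfrl1, a receptor of fibroblast growth factors without a kinase domain, read 11.97, 11.24, 9.0 and 11.56 against at most 8.08. P425 was the lowest of the 4 in each gene of this paragraph so far. At the threshold of 1 log2 unit, Lmntd2 and Rnft1 lay just inside and Sptlc2 and Pik3c2b just outside.

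Of the ErbB receptor genes, Egfr, Erbb2 and Erbb3 had higher means in the 4 and Erbb4 a lower one, and only Egfr was called. Egfr, the epidermal growth factor receptor, read 9.96, 9.22, 8.36 and 9.80 against 5.12 to 8.29 (median 5.96). Erbb2 (8.86, 8.69, 10.16 and 9.43) and Erbb3 (9.73, 9.32, 10.43 and 9.28) had mean differences of 3.46 ± 0.37 and 3.60 ± 0.35 but overlapped with the 23, which reached 8.96 and 9.62. Erbb4 read 4.40, 4.63, 8.86 and 5.46, so only P425 was near the median of 8.46 in the 23. Mst1r, the receptor RON, was called higher and Kit, the stem cell factor receptor, lower (8.34, 6.77, 7.58 and 7.96 against at least 8.78). In that list of 23 measured receptors and ligands, 2 were called higher and 1 lower, with a median difference of 0.39. The shares over all genes were 1.11% higher and 2.26% lower.

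P425 was set against the other 3 by calling genes with those 3 alone and then reading P425. With P966, P471 and P1276, 551 genes (2.48%) were called higher and 607 (2.74%) lower than the 23. P425 lay above all 23 in 249 of the 551 (45.2%) and below all 23 in 491 of the 607 (80.9%). On the scale from the mean of the 23 (0%) to the mean of the other 3 (100%), its median position was 43.6% over the higher genes and 91.4% over the lower ones. P425 was on the same side of the median of the 23 as the other 3 in 490 of the 551 and 579 of the 607. The same reading of each other member gave 90.5% and 92.4% for P966, 73.8% and 86.0% for P471, and 83.6% and 86.0% for P1276. In both directions P425 had the smallest share of the 4, and its distance from the other members was larger for the higher genes. The shares have different bases, since 264, 344 and 293 higher genes were called when P966, P471 or P1276 was the tumour left out. The numbers above all 23 (239, 254 and 245, against 249 for P425) were close by construction, because each counts genes in which all 4 exceed all 23. Genes are not independent replicates, so these shares describe 4 arrays.

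**Figure D3:**
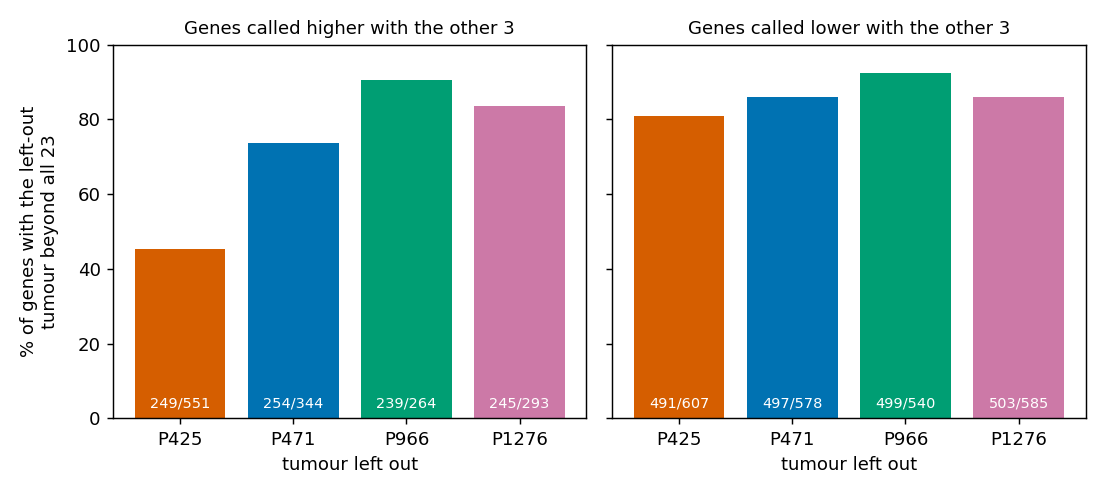
Share of genes (vertical axis, %) in which a left-out tumour lies beyond all 23, among genes called with the other 3 members, for genes called higher (left) and lower (right); the numbers at the foot of the bars are genes beyond over genes called. For the higher genes the bar of P425 stands at 45.2%, below the other 3 bars at 73.8% to 90.5%.

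By gene list, P425 followed most fully in the neural genes. In the 5 neural and neuroendocrine lists 38 genes were called lower with the 3, and P425 followed in 36, all but Rab3a and Nefm. Of 20 genes called higher in the 5 epithelial lists P425 followed in 12. Some of the others turned on the highest of the 23: P425 read 8.606 in Marveld2 against at most 8.607. In Grhl3 it read 6.29, near the median of 6.04. Its list score was 1.939 against 1.448 to 1.727 in the other 3 for tight junctions and 2.119 against 2.025 to 2.451 for luminal genes. It was 1.681 against 1.472 to 1.740 for regulators, 1.009 against 0.930 to 1.619 for basal genes and 1.805 against 2.092 to 2.543 for desmosomes. Among 37 Wnt pathway genes, 12 were called higher with the 3 and P425 followed in 3 of them, Wnt7a, Fzd6 and Rnf43. With the 3, 2.48% of all genes were called higher and 2.74% lower.

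Wnt ligands bind Frizzled receptors and stabilise beta-catenin, and Axin2, Lef1, Nkd1, Notum, Rnf43 and Znrf3 are known targets, most of which dampen the pathway in turn. Wif1, a secreted inhibitor that binds Wnt ligands, read 11.53, 10.13, 7.10 and 10.24, against 5.72 to 7.18 (median 5.92) in the 23. Axin2, a scaffold of the complex that degrades beta-catenin, read 9.27, 9.0, 6.85 and 9.63 against 6.52 to 8.42 (median 6.77). Lef1, a transcription factor partner of beta-catenin, read 9.33, 9.69, 6.56 and 9.04 against a median of 6.59. For Axin2 and Lef1, P425 lay within 0.1 of the median of the 23 while the other 3 exceeded all of them. Znrf3 and Rnf43, ligases that remove Frizzled receptors, read 9.78, 9.63, 8.19 and 9.87 and 10.12, 10.06, 8.53 and 10.23 against at most 8.46 and 8.31. Nkd1, an inhibitor of Dishevelled that was not on the list, read 11.53, 10.90, 7.88 and 11.37 against 6.60 to 8.65. Notum, an enzyme that inactivates Wnt ligands, likewise not on the list, read 10.06, 8.38, 6.87 and 10.07 against at most 6.04. Both were chosen after their values were seen.

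Wnt7a, Wnt10a and Wnt6, the ligand genes called higher with P966, P471 and P1276, showed the same order. Other ligand genes of the list were not called with those 3, and 6 of the 37 Wnt genes had a mean difference below 0 with the 4. Wnt7a read 8.39, 8.94, 6.17 and 8.57 against 5.54 to 6.10, so P425 exceeded the 23 by 0.07 and lay over 2 log2 units under the other 3. Wnt10a read 7.43 in P425 and at least 8.77 in the other 3, against at most 7.60 in the 23, and Wnt6 read 8.47, 7.41, 6.06 and 8.0 against at most 6.77. Fzd6, a Frizzled receptor, was alike in the 4 at 8.78, 9.04, 8.58 and 8.67 against at most 8.47. Fzd10 read 7.04, 5.85, 3.79 and 6.42 against at most 5.08. With the 4 together, 3 of 37 Wnt genes were called higher and 0 lower (median difference 0.92), beside 1.11% and 2.26% of all genes.

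Pax3, a paired-box factor of neural crest and muscle precursors, read 8.69, 8.09, 5.36 and 8.67 against 4.78 to 5.47 (median 5.02). Grhl3, a grainyhead factor of surface epithelium, read 9.61, 8.70, 6.29 and 9.33 against 5.58 to 6.52. For both genes P425 stayed inside the range of the 23, and the other 3 lay at least 2.18 above its upper end. The genes with the largest difference in the 3 whose value in P425 was not above all 23 were Pla2g2a, a secreted phospholipase (11.90, 10.27, 6.74 and 10.69), Wif1, Krt23, the zinc transporter gene Slc30a2 (10.77, 9.64, 6.17 and 8.79), the epithelial factor gene Elf3, Stra6, a receptor for retinol-binding protein (10.85, 10.58, 6.83 and 10.09), Dsg2, Ccdc141, Atp10a and Asprv1. In Elf3, Krt23 and Dsg2, P425 was still raised, at 9.49, 7.28 and 7.42 against medians of 5.74, 4.58 and 4.60 in the 23. The highest of the 23 read 9.56, 7.38 and 8.01 there. In Slc30a2, Stra6, Ccdc141 and Asprv1 it lay within 1 log2 unit of the median.

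**Figure D4:**
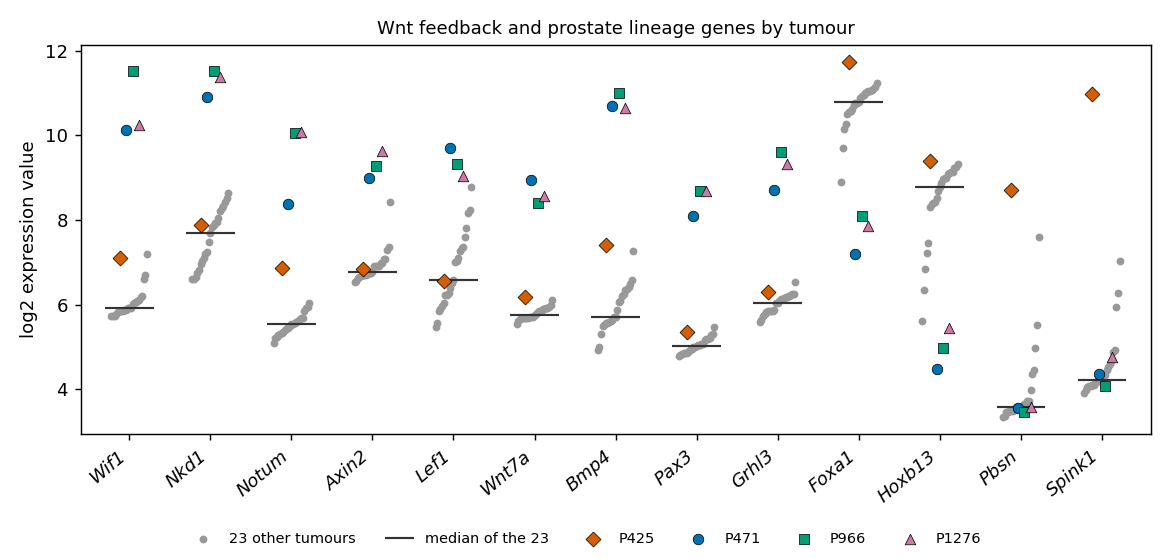
Log2 expression values (vertical axis) of Wnt pathway genes, Bmp4, Pax3, Grhl3 and prostate lineage genes in each tumour, with grey points for the 23 other tumours, a bar for their median and coloured symbols for the 4. P425 (diamond) lies among the grey points or at most 0.82 above them (Notum) from Wif1 to Grhl3, and above all of them from Foxa1 to Spink1, where the other 3 do not.

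Prostate identity separated P425 from the other 3 in the opposite sense. Foxa1, a pioneer transcription factor of prostate epithelium, read 8.10, 7.20, 11.72 and 7.87 against 8.91 to 11.24 (median 10.78). Hoxb13, the homeobox factor that marks prostate epithelium, read 4.98, 4.47, 9.39 and 5.44 against 5.61 to 9.31 (median 8.77). P425 was thus the highest of all 27 tumours in both genes, and P966, P471 and P1276 were the lowest 3. The labelled tissue was prostate tumour, and in those 3 tumours Hoxb13 lay below the median of all rows. Gata3 read 6.46, 6.5, 9.34 and 6.48 against 6.09 to 9.39 (median 6.79) in the 23, so P425 lay inside their range. Creb3l4, an androgen-responsive factor of prostate, was alike in the 4 (7.22, 6.99, 6.84 and 7.13 against at most 6.05) and was the 1 called member of 12 in that list. As 1.11% of all genes were called higher, 1 member does not set that list apart.

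Among the 4, secretory prostate genes were high in P425 alone. The score of 18 androgen-responsive and secretory genes (mean over the genes of the log2 value minus the mean of the 23) was 3.76 in P425 and 0.13 to 0.34 in the other 3, and the 23 ranged from -0.73 to 2.73. Pbsn, probasin, the gene whose promoter drives the transgene, read 3.46, 3.56, 8.70 and 3.58 against a median of 3.58 and a highest value of 7.60 in P219. Spink1, a secreted trypsin inhibitor, read 4.07, 4.35, 10.97 and 4.77 against at most 7.03. Msmb, a major secreted prostate protein, read 11.33 in P425, and 11.62 in the highest of the 23. Sbp read 10.41 in P425 and Psca 9.40, against at most 8.11 and 7.49 in the 23. Tmprss2, an androgen-regulated protease, was well above the median of the 23 in all 4 (10.14, 9.24, 11.08 and 10.51 against a median of 5.97). The 23 reached 10.07, so P471 lay inside their range. None of the 18 was called with the 4 together, and at 1.11% of all genes called higher a list this short would hold few if any.

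Dividing-cell genes were low in P425. The score of 18 mitosis genes was -1.95 in P425, -0.32, 0.14 and -0.41 in P966, P471 and P1276, and -0.49 to 0.43 in the 23. Bub1, a spindle checkpoint kinase, read 9.60, 10.71, 6.97 and 9.18 against 9.25 to 10.60. Top2a read 10.49, 11.24, 8.39 and 10.54 against 10.11 to 11.30, and Mki67 read 10.99, 11.17, 9.98 and 10.89 against 10.86 to 11.61. P425 lay below all 23 in these genes, while P471 was the highest of all 27 for Bub1. The score of 17 replication genes was -1.03 in P425 and -0.23 to -0.07 in the other 3. Of those genes only Rrm2, a subunit of ribonucleotide reductase, was called lower in the 4 (8.96, 9.09, 7.99 and 8.79 against at least 9.21). Cdkn2c, the cyclin kinase inhibitor p18, was the 1 called gene of 18 in the Rb and p53 list (8.83, 8.66, 8.98 and 8.54 against at least 9.89). As 2.26% of all genes were called lower, 1 gene in a list of 17 or 18 sets neither list apart.

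Markers of other tissue cells also differed among the 4, and their part in the results above was not tested. The score of 9 adipose genes was 3.18 in P425 and 0.27 to 0.99 in the other 3, with 9 of 9 mean differences above 0 and at most 1.72 in the 23. Plin1 and Cidec, coat proteins of the fat droplet, read 9.43 and 9.94 in P425 and at most 6.48 and 6.41 in the other 3. Smooth muscle gave 2.05 in P425, inside the range of the 23, which reached 2.23 in P219, and -0.26 to 0.07 in the other 3. Cnn1, calponin, read 5.68, 6.08, 10.93 and 6.43. B and plasma cell genes gave 1.60 in P966, 2.28 in P471, 0.35 in P425 and -0.15 in P1276, against at most 0.95 in the 23. Ighm, the immunoglobulin heavy chain, read 10.96, 12.06, 9.95 and 7.65. T and NK cell genes gave 1.41 in P471, above all 23, and 0.15 to 0.56 in the other 3. Fibroblast and matrix genes gave 1.24, 1.37, 0.29 and 0.87 in P966, P471, P425 and P1276, against at most 0.92 in the 23, so P966 and P471 lay above all of them, and 13 of 13 mean differences were above 0. Macrophage genes gave 0.83, 1.06, -0.02 and 0.26 against at most 0.99, and endothelial genes 0.49, 0.71, 0.11 and 0.78 against at most 0.72, with 15 of 15 and 9 of 9 mean differences above 0. For these 3 lists P425 had the lowest score of the 4. In the adipose, smooth muscle, B and plasma cell, T and NK cell, fibroblast, macrophage and endothelial lists 0 genes were called higher. These lists hold 9 to 15 measured genes each. At the 1.11% of all genes called higher they would hold few if any, so the count does not set them apart.

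Interferon and class I antigen presentation genes were high in the 4 and in some of the 23. Of 12 interferon response genes 2 were called higher, Isg15 and Usp18 (median difference 2.06). Usp18, which removes the ubiquitin-like protein encoded by Isg15, read 11.70, 11.62, 10.50 and 11.01 against 5.79 to 9.91 (median 6.76). Oas1g, an antiviral enzyme gene, read 7.84, 9.68, 8.15 and 7.48, and the 23 had a median of 4.19 and reached 8.73. The score of the list was 1.44 to 2.59 in the 4 and -0.72 to 1.75 in the 23, with the highest of the 23 in P219. Psmb9, an inducible subunit of the immunoproteasome, was the 1 called member of 9 class I genes, and all 9 had mean differences above 1 log2 unit. Tap1, which carries peptides to class I molecules, read 10.53, 10.31, 9.58 and 10.11 against 6.82 to 9.91. Of 8 class II genes 0 were called, where 1.11% of all genes were called higher and 2.26% lower. Their score was 1.37, 0.95, 0.46 and -0.05 in the 4 against -0.82 to 0.83 in the 23, so P425 and P1276 lay inside the range of the 23.

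Each tumour also had genes to itself. More than 1 log2 unit above all other 26 tumours were 193 genes in P425, 97 in P471, 42 in P966 and 33 in P1276, and more than 1 log2 unit below all others were 197, 29, 5 and 3. The 23 had 1 to 69 such genes above (median 8) and 0 to 17 below. In P425 the leading ones were Lcn12, a lipocalin (11.45 against at most 6.53 elsewhere), and Spink5 (11.63), with the kinesin gene Kif18a (5.55) and Rtkn2 (5.89) among the lowest. P471 led in Bpifa2, a salivary secretory gene, at 12.33 against at most 6.84, and in Cst10, Chia1 and Smr3a, the last 3 at 8.40, 8.28 and 6.21. P966 led in Fgf20, a fibroblast growth factor (9.24), and Egfl6 (10.21), and P1276 in Tmprss11e (7.45) and Sult1d1 (5.98). Over all rows the arrays of P966 and P1276 correlated at r = 0.976 and P966 and P471 at 0.965, whereas P425 correlated with the 3 at 0.943, 0.919 and 0.946, and with its nearest of the 23, P219, at 0.946. These correlations are across rows that are not independent, and P219 was as close to P425 as P1276 was.

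**Figure D5:**
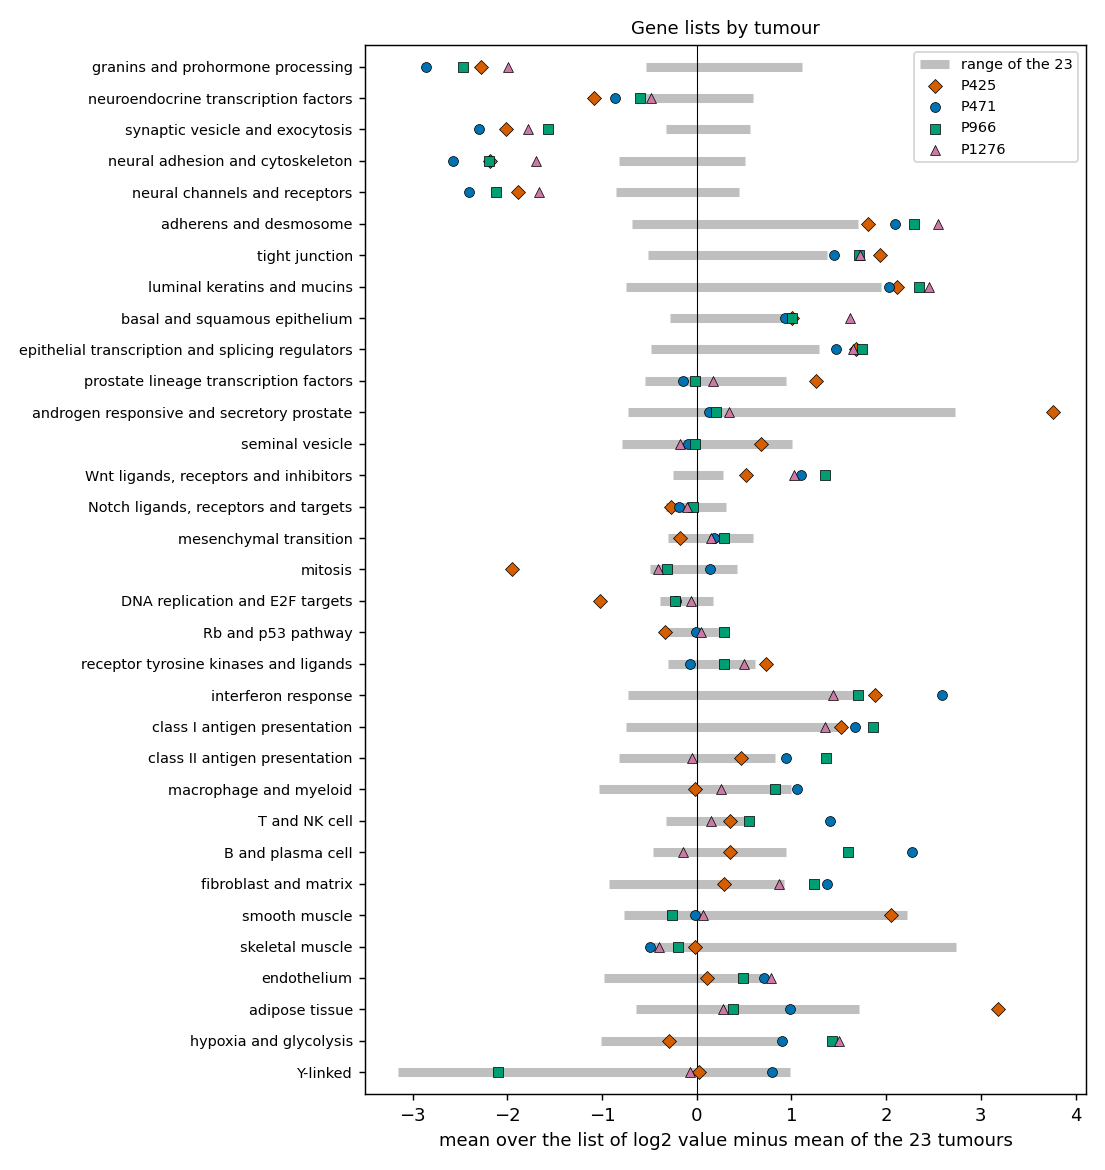
Score of each of 33 gene lists (horizontal axis: mean over the list of the log2 value minus the mean of the 23 other tumours) for the 4 tumours of low Syp as coloured symbols and the range of the 23 as a grey bar. The neural lists place all 4 left of the grey bar except for transcription factors, and P425 stands apart from the other 3 for androgen-responsive genes (3.76), mitosis (-1.95) and adipose tissue (3.18).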

How the data were processed

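Log2 expression values of 27 arrays, 1 per tumour, were used as deposited. The labels' processing notes name Partek, with normalization and probe summary not given in the sources used here. Rows were named through the platform's probe table: 23521 of 41345 rows had 1 gene symbol, 1814 had several, 16010 had none, and only the first were used. A gene's row of highest mean stood for it where it had several (1082 of 22180 genes). Tumours were split at a log2 Syp value of 6.5. All differences of log2 values were computed here with Python 3.11.15, pandas 2.3.3, numpy 2.4.6 and scipy 1.17.1; the SE is that of a difference of means with unequal variances. No test was run, since the split uses a measured value. The call rule was checked on simulated data. The members, the 33 gene lists (470 of 510 genes measured) and the alternatives were chosen with earlier results of these data known.

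Named genes were the 15 largest called differences in each direction, members of the lists, the leading genes of each member, those that P425 did not share and the genes nearest the threshold; symbols that only number a transcript were left out of rankings. Other named genes were chosen after their values were seen. Sequences came from RefSeq (GRCm38.p6).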

Additional observations from a re-analysis of the deposited data

Results flagged for a closer look

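Among the genes named above, 1 tumour of the 4 stood apart from the other 3 in 26 of 154, by Dixon's criterion at the 95% level. Chance alone gives this in about 1 of 20 groups, and genes that vary together are not independent. P425 was the tumour apart in 16. It was the lowest of the 4 in Prox1 (6.95 log2), Tgm3 (8.78), Bmp4 (7.40), S100a6 (8.66), Rnf43 (8.53), Znrf3 (8.19) and Ccdc141 (6.53). It was the highest in Spink1 (10.97), Gata3 (9.34), Pbsn (8.70), Msmb (11.33), Sbp (10.41), Cidec (9.94), Cnn1 (10.93), Lcn12 (11.45) and Spink5 (11.63). P471 was apart in 6 genes, with the lowest value in Bves (4.59) and the highest in Isg15 (7.29), Bpifa2 (12.33), Cst10 (8.40), Chia1 (8.28) and Smr3a (6.21). P1276 was highest in Tmprss11e (7.45), Sult1d1 (5.98) and Hes5 (6.91), and P966 in Eif4e3 (7.94). These counts rest in part on how genes were chosen. Prox1, Spink1, Lcn12, Spink5, Bves, Bpifa2, Cst10, Chia1, Smr3a, Tmprss11e and Sult1d1 were named because 1 tumour led them in either direction, Ccdc141 because P425 did not share it, and Znrf3, Gata3, Pbsn, Msmb and Sbp after their values were seen, so their place here follows from that choice.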

How the results depend on the processing

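With no test of the groups, only sizes and counts can shift. The 246 higher and the lower calls and the 45.2% and 80.9% of genes in which P425 followed stayed within 1.5 times, or within the 95% binomial interval, under quantile normalization, array centring, the row of largest SD, the mean of rows, a filter on low genes, differences of medians and leaving out P1225, the lowest Syp of the 23. The binomial interval treats genes as independent draws, which they are not, so it is a fixed yardstick here and not a measure of spread. With the mean of rows the members were kept as chosen by the 1 row. A minimum of 2 log2 units gave 93 higher and 222 lower genes, and P425 followed in 91.2% of the lower ones. With no minimum P425 followed in 73.7% of the lower ones. With overlap allowed there were 1305 higher and 1187 lower genes, and P425 followed in 36.5% and 55.8%. Leaving out each tumour in turn gave 245 to 551 higher and 499 to 607 lower genes, with the most higher genes without P425 (551) and, among the 23, without P219 (400). The share for P425 ranged from 37.5% to 58.4% for higher genes, the latter without P219, and from 74.4% to 82.0% for lower genes. Over 154 named genes no called difference changed sign. Most settings could not have changed it, since with all 4 beyond all 23 leaving out a tumour or taking medians keeps the sign. Among named genes not called, several differences changed sign when 1 tumour was left out, and the following are examples. Without P425, positive differences became -0.175 for Spink1, -0.273 for Spink5, -0.425 for Pbsn and -0.437 for Sbp. Prox1 went the other way, from negative to 0.273. Without P471 the difference became -0.096 for Bpifa2 and -0.089 for Smr3a, and without P1276 -0.069 for Tmprss11e. Leaving out 1 tumour moved a called difference by more than 1.5-fold in 10 genes. Without P425 it became 5.94 for Tgm3, 4.89 for Bmp4, 4.51 for S100a6, 4.47 for Akp3, 4.46 for Fgfrl1, 4.09 for Plat, 3.98 for Notum and 2.85 for Wnt7a, without P471 -2.66 for Snap25 and without P966 0.81 for Fgf20. Each member is 1 array. Values near 5.75, the median of all rows, may understate how far a gene differs, but no background level was estimated.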

Other observations

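Hypoxia and glycolysis genes differed among the 4. Their 9-gene score was 1.43 in P966, 0.90 in P471, -0.29 in P425 and 1.5 in P1276, and the 23 ranged from -1.01 to 0.91. Slc2a1, the glucose transporter GLUT1, read 11.70, 10.68, 9.77 and 11.77 (in the order P966, P471, P425, P1276) against 8.0 to 10.52 in the 23, and Adm, the hypoxia-induced peptide adrenomedullin, read 8.52, 6.66, 5.30 and 8.86 against 4.94 to 7.82. P425 lay inside the range of the 23 in both. Scd1, a fatty acid desaturase, read 11.04, 10.42, 11.73 and 10.50 against a median of 6.78 in the 23, which reached 11.13.

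Notch genes showed no common direction, with 8 of 19 mean differences above 0 and 11 below (median difference -0.11). Of the 19, 0 were called either way. With 1.11% of all genes called higher and 2.26% lower, a list this short would hold few if any. Within the list Notch2, a receptor, read 8.75, 9.02, 9.40 and 8.59 against 5.61 to 8.70, and the target gene Hes1 read 9.13, 8.79, 7.73 and 8.48 against 6.34 to 7.97. Hes5, another target, read 6.17, 6.28, 6.24 and 6.91 against 6.52 to 10.10. The transcripts of the Y-linked genes Kdm5d, Uty and Eif2s3y were low in P966 (5.75, 6.09 and 6.96), and lower still in P569 among the 23 (4.63, 4.78 and 5.86); the other 3 members read at least 7.61, 8.34 and 8.65.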
